A study of Homo sapiens with 11 samples.

Results

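Cadherins are calcium-dependent adhesion proteins that hold neighbouring cells together, and the set described here joins the cadherins CDH1, CDH2, CDH3 and CDH5 to EPCAM, VIM and the transcription factors SNAI1, SNAI2, ZEB1 and ZEB2, which mark or drive the epithelial-mesenchymal transition (EMT). The 10 genes were chosen by name, for their place in this programme, with earlier results of these data known. A gene entered through the probe set that the array annotation gives to that symbol alone, and each of the 10 had exactly 1 such probe set among the 22395 genes that had a probe set of their own. Of the 10 genes, 7 passed the filter on low values and were tested among 15865 genes, and CDH2, ZEB1 and ZEB2 did not pass it.

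Expression was measured on 11 Affymetrix Human Gene 2.1 ST arrays of MDA-MB-468, an established triple-negative breast cancer line taken from a pleural effusion. All cells were grown in medium with serum. Control cells (3 arrays) received neither agent, TNF cells (3 arrays) received tumour necrosis factor at 40 ng/ml, apigenin cells (2 arrays) received the plant flavone apigenin at 40 µM, and TNF plus apigenin cells (3 arrays) received both at these doses, each for 24 h. The question behind the design is how the cells respond to TNF and whether apigenin alters that response. Values are on the log2 scale, on which a difference of 1 is a doubling. A change was called where limma's p, after Benjamini-Hochberg adjustment across the tested genes, was under 0.05.

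In an epithelial sheet, CDH1 (E-cadherin) joins cells at the adherens junction and is anchored to actin through catenins. During EMT the repressors SNAI1, SNAI2, ZEB1 and ZEB2 bind E-box motifs and silence CDH1 and other epithelial genes, while CDH2 (N-cadherin) and the intermediate filament vimentin (VIM) are gained. TNF is known to promote EMT in several epithelial cancers through NF-kB and the stabilisation of SNAI1 protein, a step that messenger RNA does not report. CDH5 (VE-cadherin) is the cadherin of endothelial junctions and has also been described in tumour cells that form vessel-like networks.

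ZEB1 and ZEB2 are held down in epithelial cells by the miR-200 family, whose members pair with their transcripts through the seed at bases 2 to 8. The 5 mature sequences are shown because the family falls into 2 seed groups that differ at a single base. Whether these microRNAs have a part in the low ZEB1 and ZEB2 values given further on was not tested. They are RefSeq sequences on GRCh38.p14, written 5′ to 3′ with the seed in capitals. The seed AAUACUG is shared by miR-200b, miR-200c and miR-429, and the seed AACACUG by miR-200a and miR-141.
hsa-miR-200b-3p (chr1:1167160-1167181, plus strand): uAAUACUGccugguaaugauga
hsa-miR-200c-3p (chr12:6963742-6963764, plus strand): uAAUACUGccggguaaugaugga
hsa-miR-429 (chr1:1169055-1169076, plus strand): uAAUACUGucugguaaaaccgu
hsa-miR-200a-3p (chr1:1167916-1167937, plus strand): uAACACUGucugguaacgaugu
hsa-miR-141-3p (chr12:6964155-6964176, plus strand): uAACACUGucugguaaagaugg

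Of the 7 tested genes, only CDH5 was called in any comparison. CDH5 rose with TNF, fell with apigenin, and fell again when apigenin was added to TNF. The epithelial genes CDH1, CDH3 and EPCAM and the mesenchymal filament VIM lay clearly above the floor on every array and were not called in any comparison. The EMT repressors lay near or below the floor. The floor, 2.53, is the median of the probe set means over all probe sets on the array. A value near it is treated here as one that cannot be told from background, although background itself was not measured.

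**Figure D1:**
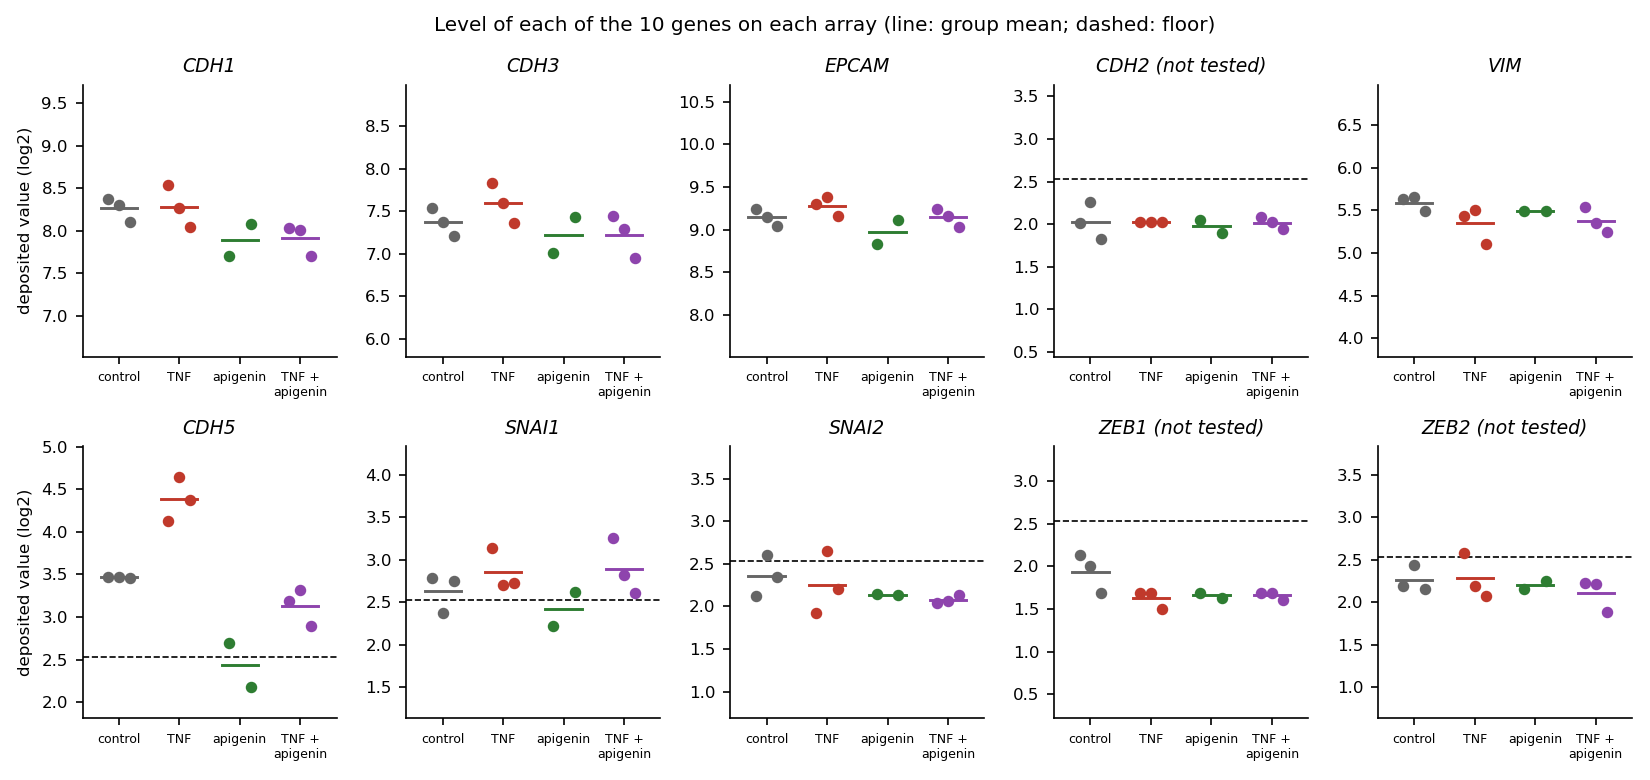
Deposited log2 value of each of the 10 genes on each array, by group, with the group mean as a line and the floor of 2.53 as a dashed line where it falls in the panel; every panel spans the same number of log2 units. The 3 TNF arrays of CDH5 lie between 4.13 and 4.64, above all other arrays, while CDH2 and ZEB1 lie below the floor on every array.

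The arrays were alike within groups, with Pearson correlations over tested genes of 0.973 to 0.987 in control, 0.973 to 0.981 in TNF, 0.98 to 0.987 in TNF plus apigenin and 0.969 between the 2 apigenin arrays. The array apigenin 1 stood apart, with a median of 3.89 and an interquartile range of 2.4 over the tested genes, against 4.08 to 4.32 and 2.63 to 2.91 on the other 10 arrays. Results on apigenin alone therefore rest on 2 arrays of which 1 has a compressed distribution. Without apigenin 1, 0.466% of the tested genes were called lower with apigenin and the median change of all genes was -0.04, and without apigenin 2 these were 7.54% and -0.33. Each such fit has 1 apigenin array, which is assumed to vary like the other groups. The labels name the line and not its type, and markers were read for an epithelial, basal-like, hormone receptor-negative line, as MDA-MB-468 is known. All 6 epithelial markers and both basal-like markers with a probe set of their own (KRT5 and EGFR) had means above the floor, and ESR1 and PGR did not. KRT6B, KRT17 and ERBB2, also listed, had no probe set of their own. Of the markers of other cell types with a probe set, means above the floor were found for 3 of 5 of endothelium, 2 of 6 of fibroblasts and 3 of 7 of macrophages. The others had means below it, among them VWF and TEK of endothelium, DCN, LUM and PDGFRB of fibroblasts and CD163, MRC1 and LYZ of macrophages.

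CDH5 encodes VE-cadherin. Its value was 3.47, 3.47 and 3.46 on the control arrays and 4.13, 4.64 and 4.38 on the TNF arrays. It was 2.69 and 2.18 on the apigenin arrays and 3.19, 3.32 and 2.89 on the arrays of TNF plus apigenin. Every TNF array was above every other array, and both apigenin arrays were below all the rest, so that none of the 4 groups overlapped. The group means were 3.46 ± 0.01 (SD, n = 3) in control, 4.38 ± 0.26 (SD, n = 3) in TNF, 2.43 ± 0.36 (SD, n = 2) in apigenin and 3.13 ± 0.22 (SD, n = 3) in TNF plus apigenin. The apigenin mean lies below the floor, which apigenin 1 reached and apigenin 2 did not. Differences from that group are given as bounds, with each apigenin array set at the higher of its value and the floor. The bounds allow for the floor and not for the spread between arrays. The control arrays were closer together than is usual, since 0.914% of the tested genes had a control SD this small or smaller.

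TNF raised CDH5 by 0.92 ± 0.19 on the log2 scale (SE; 95% interval 0.5 to 1.33), which is 1.89-fold, with a limma adjusted p of 0.0448. This was 1 of 7 tested genes of the set called higher, and 0.473% of all tested genes were called higher in this comparison (0.227% lower). The call lay close to the threshold: it was lost in 10 of 20 alternative settings, although the change stayed between 0.79 and 1.05. Leaving out TNF replicate 2 gave the smallest change, 0.79, with an adjusted p of 0.225. Leaving out control replicate 1, 2 or 3 gave adjusted p-values of 0.158, 0.123 and 0.15, without TNF replicate 3 it was 0.137, and without TNF plus apigenin replicate 1 or 2 it was 0.0655 and 0.0612. An RNA level from a whole culture cannot tell a change in the number of cells that express a gene from a change in RNA per cell.

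With apigenin alone, the CDH5 mean was at least 1.81-fold lower than the control mean, which is 0.85 on the log2 scale. This bound allows for the floor only, and the spread between arrays leaves room for a smaller fall. The fit to the values as deposited, part of them below the floor, gave -1.03 ± 0.22 (SE) with a limma adjusted p of 0.0178. Its 95% interval was -1.49 to -0.57. CDH5 was the 1 of 7 called lower. Of all tested genes 3.44% were called lower and 0.221% higher, shares that move with the apigenin arrays as given above. Under quantile normalization of all probe sets, which removes the narrower spread of apigenin 1, these shares were 2.84% and 0.922% and the CDH5 call was kept. The call was lost in 5 of 20 alternatives, among them leaving out apigenin replicate 2 (-0.78, adjusted p 0.0659), control replicate 1 (0.0676) and control replicate 3 (0.063). Without the array apigenin 1 the fit gave -1.29 (adjusted p 0.0401), from the single array apigenin 2, whose value is below the floor. The comparisons of TNF and of apigenin with control share their control arrays.

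Adding apigenin to TNF brought CDH5 down from its highest level. Between TNF and TNF plus apigenin, CDH5 fell by 1.25 ± 0.19 on the log2 scale (SE; 95% interval -1.67 to -0.84), or 2.38-fold, with a limma adjusted p of 0.00451. All 3 arrays with both agents were below all 3 TNF arrays. The call held in all 20 alternatives, with changes of -1.38 to -1.12 and adjusted p-values of 0.00131 to 0.0347. In this comparison 0.681% of all tested genes were called lower and 0.384% higher, and CDH5 was the 1 of 7 called.

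Set against untreated cells, cells with both agents had a CDH5 value that was not called. The difference was -0.33 ± 0.19 (SE; 95% interval -0.75 to 0.08, adjusted p 0.441), in a comparison that called 1.04% of all tested genes higher and 1.78% lower, and 0 of the 7 genes of the set. In the presence of apigenin the CDH5 mean was at least 0.52 higher on the log2 scale with TNF than without it, as a bound against the same apigenin mean below the floor. The fitted difference of 0.7 ± 0.22 (SE) had an unadjusted p of 0.0058 and an adjusted p of 0.155 and was not called, and the groups did not overlap. That comparison called 0.529% of all tested genes higher and 0.0441% lower. The interaction, which tests whether the TNF response of CDH5 differed with and without apigenin, was fitted at -0.22 ± 0.29 (SE, adjusted p 0.789) and was not called. It too uses the apigenin mean below the floor, so its size is not a measurement. Genes with a called interaction made up 0.0252% of those tested, and none was a member of the set.

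**Figure D2:**
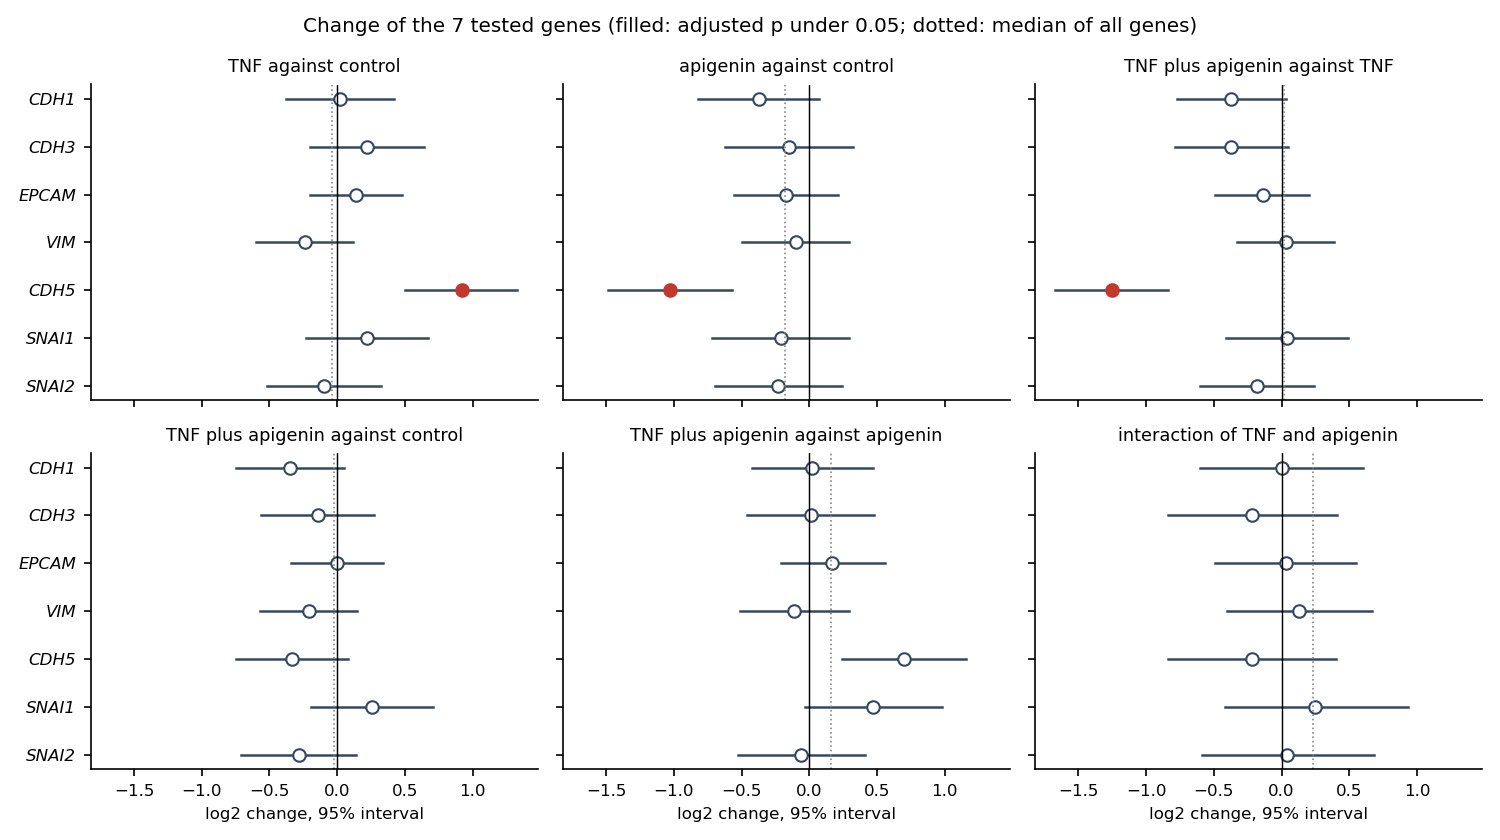
Log2 change with its 95% interval for the 7 tested genes in the 5 comparisons and the interaction; filled red points have an adjusted p under 0.05 and the dotted line is the median change of all tested genes. Filled points appear for CDH5 only, at 0.92 with TNF, -1.03 with apigenin (whose mean is below the floor) and -1.25 for TNF plus apigenin against TNF.

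**Figure D3:**
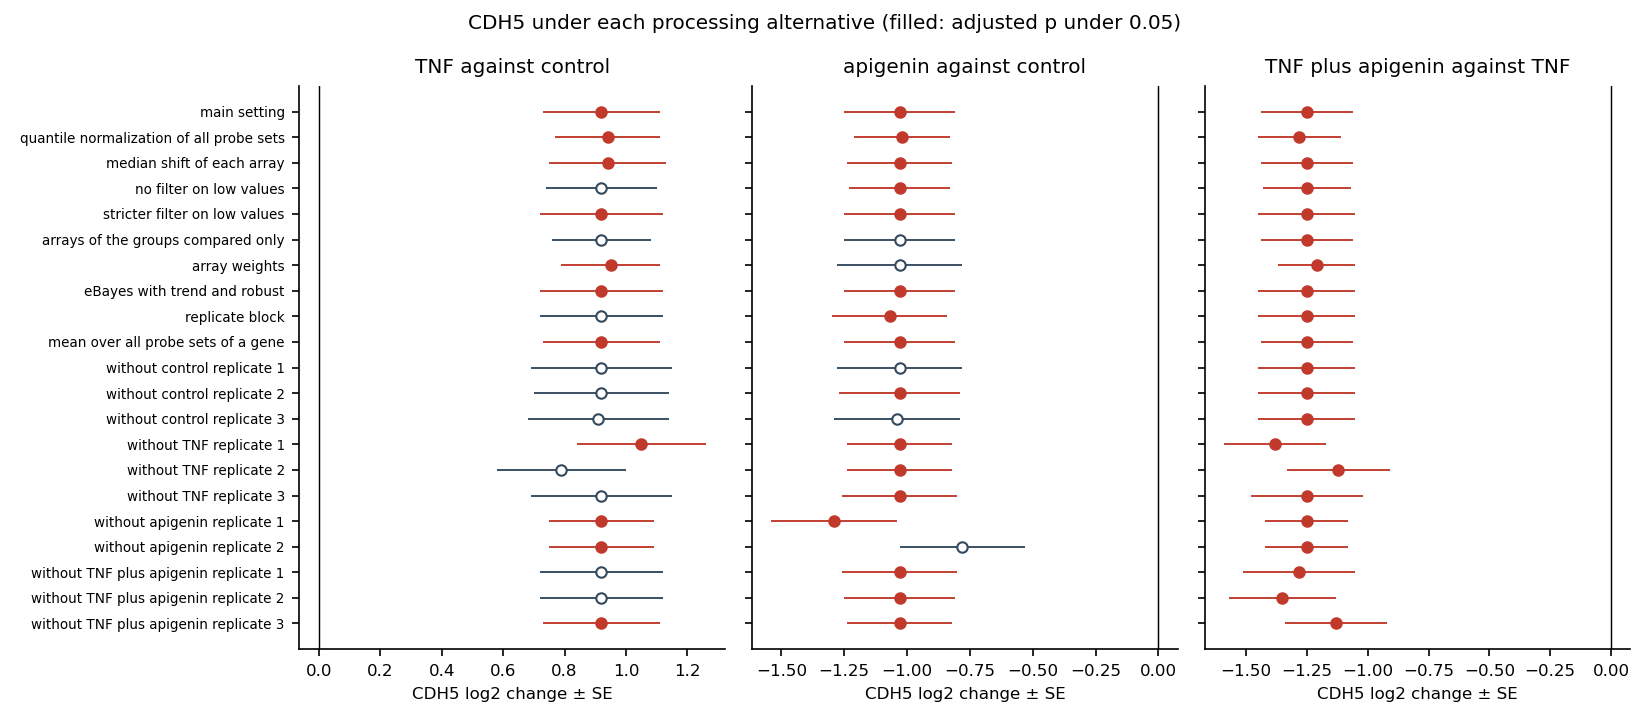
Log2 change of CDH5 with its SE in the setting used for the text and in 20 alternatives, for 3 comparisons; filled points have an adjusted p under 0.05. All points of TNF plus apigenin against TNF are filled, and 10 of TNF against control and 5 of apigenin against control are open.

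Since CDH5 is an endothelial gene, other endothelial genes were read beside it. Of 6 listed markers 5 had a probe set of their own, and the summed level of the 5 spanned 5.41 to 5.73 on the log2 scale in control, 5.42 to 5.61 in TNF, 5.03 to 5.35 in apigenin and 5.22 to 5.25 in TNF plus apigenin. VWF, the von Willebrand factor stored by endothelial cells, was 1.51 to 2.01 on all arrays, and TEK, the angiopoietin receptor, was at or above the floor on 1 array of 11. With TNF the summed level of these markers overlapped that of control, and none of the 3 that were tested (KDR, CLDN5 and ESAM) was called.

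KDR, the main VEGF receptor, was the 1 of 3 tested endothelial markers called with apigenin, where 3.44% of all tested genes were called lower. It was 4.18, 3.89 and 4.62 in control, 3.97, 4.3 and 4.28 in TNF, 3.14 and 2.68 in apigenin, and 3.25, 3.5 and 3.58 with both. Apigenin lowered KDR by 2.5-fold (log2 change -1.32 ± 0.23, SE, adjusted p 0.0071; 0.067 when the apigenin and control arrays were fitted alone), and both apigenin arrays lay below all control arrays. TNF did not separate KDR from control. All 3 arrays with both agents lay below all control arrays and all TNF arrays. With both agents KDR changed by -0.79 ± 0.21 against control (SE, limma adjusted p 0.0574) and by -0.74 ± 0.21 against TNF (limma adjusted p 0.125), and neither was called. ESAM and CLDN5, other endothelial junction proteins, were not called. What part KDR or any other endothelial transcript has in the CDH5 result was not tested.

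**Figure D4:**
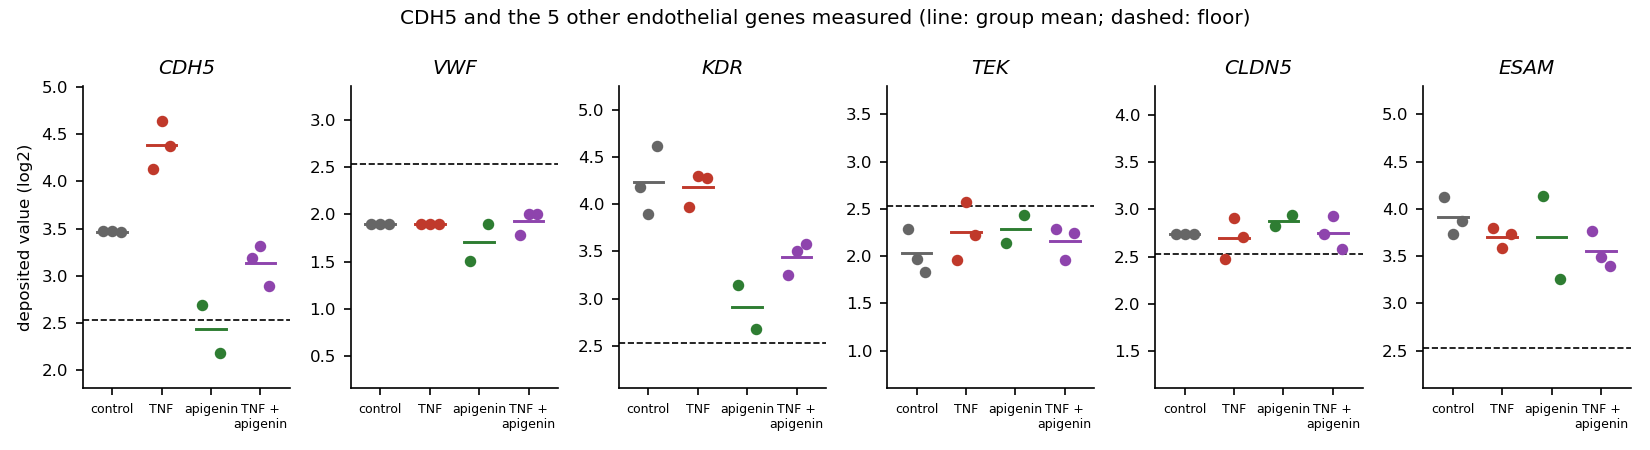
Deposited log2 values of CDH5 and of 5 other endothelial genes on each array, with group means as lines and the floor of 2.53 dashed. CDH5 alone separates TNF from control. KDR is low on the 2 apigenin arrays (3.14 and 2.68) and on the 3 arrays with both agents (3.25, 3.5 and 3.58), and VWF lies below the floor throughout.

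The 3 genes most like CDH5 over the 11 arrays, by Pearson correlation among all tested genes, were BICC1 (0.974), CLEC7A (0.964) and the long non-coding RNA CASC15 (0.962). BICC1 encodes an RNA-binding protein. It was 4.83, 4.72 and 4.65 in control, 5.53, 5.83 and 5.54 in TNF, 4.03 and 3.87 in apigenin and 4.78, 4.95 and 4.29 with both. It rose by 0.9 ± 0.19 with TNF (SE, adjusted p 0.0428) and fell by 0.96 ± 0.19 between TNF and TNF plus apigenin (adjusted p 0.0209), while its change of -0.79 with apigenin alone had an adjusted p of 0.0542. CLEC7A, the beta-glucan receptor of myeloid cells, fell by 1.02 ± 0.21 with apigenin (SE, adjusted p 0.0162) and by 0.93 ± 0.19 between TNF and both agents (adjusted p 0.0239), and its change of 0.59 with TNF had an adjusted p of 0.309. CASC15 was not called, with changes of 0.33, -0.72 and -0.58 in the same 3 comparisons. These correlations describe arrays that share 4 group means and carry no test.

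CDH1, the E-cadherin gene, was 8.38, 8.3 and 8.11 in control, 8.54, 8.27 and 8.04 in TNF, 7.7 and 8.08 in apigenin, and 8.03, 8.01 and 7.7 with both. The TNF arrays surrounded the control arrays, and the 5 arrays with apigenin lay below all 3 control arrays, the closest at 8.08 against 8.11. The TNF change was 0.02 ± 0.19 (SE; 95% interval -0.38 to 0.42, adjusted p 0.997). The change with apigenin was -0.37 ± 0.21 (SE; 95% interval -0.82 to 0.07), with an unadjusted p of 0.0936 and an adjusted p of 0.344. It was -0.18 without apigenin 1 and -0.57 without apigenin 2, not called in either. From TNF to TNF plus apigenin it was -0.37 ± 0.19 (SE; 95% interval -0.77 to 0.03), with an unadjusted p of 0.0652 and an adjusted p of 0.492. The groups did not overlap in the latter 2 comparisons, yet neither passed the test. The median of all tested genes was itself -0.177 with apigenin, and under quantile normalization the CDH1 change was -0.12. These intervals leave room for a loss of CDH1 RNA of up to 0.82 on the log2 scale, or for none. With both agents against control CDH1 changed by -0.35 ± 0.19 (SE, adjusted p 0.387). In that comparison 1 of 6 epithelial markers was called lower, against 1.78% of all tested genes. Of these 6 markers, 4 had an unadjusted p under 0.05 on the lower side. The share of all tested genes under that p is not given here, so this count has no baseline. The list median was -0.47 against -0.02 over all genes, and the part of these markers in the CDH1 values was not tested.

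CDH3 encodes P-cadherin, which is common in basal-like breast cancers, and its gene lies next to CDH1 on chromosome 16. It was 7.54, 7.38 and 7.21 in control, 7.83, 7.6 and 7.36 in TNF, 7.01 and 7.43 in apigenin, and 7.44, 7.29 and 6.95 with both. All pairs of groups overlapped. Its changes were 0.22 ± 0.2 with TNF (SE, adjusted p 0.908), -0.15 ± 0.22 with apigenin (adjusted p 0.754; 0.15 under quantile normalization, 0.06 without apigenin 1 and -0.36 without apigenin 2) and -0.37 ± 0.2 from TNF to both agents (adjusted p 0.526). CDH3 followed CDH1 from array to array, with a Pearson correlation of 0.913 over the 11 arrays, and both had a correlation with the array median of 0.472 to 0.486.

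EPCAM, an epithelial adhesion molecule and a common marker of carcinoma cells, lay between 8.83 and 9.38 on all arrays. It was 9.24, 9.15 and 9.04 in control, 9.3, 9.38 and 9.16 in TNF, 8.83 and 9.11 in apigenin, and 9.24, 9.16 and 9.03 with both. No comparison of EPCAM was called, and its 5 changes lay between -0.17, with apigenin, and 0.17. The 95% interval was -0.56 to 0.21 for apigenin against control and -0.21 to 0.56 for both agents against apigenin. Quantile normalization turned the apigenin value to 0.03, and it was -0.03 without apigenin 1 and -0.31 without apigenin 2. It correlated with CDH3 at 0.862 and with CDH1 at 0.772 over the 11 arrays, and with the array median at 0.67.

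VIM encodes vimentin, the intermediate filament of mesenchymal cells. It was 5.63, 5.66 and 5.49 in control, 5.44, 5.5 and 5.1 in TNF, 5.49 and 5.49 in apigenin, and 5.54, 5.35 and 5.25 with both. The TNF change was -0.24 ± 0.17 (SE; 95% interval -0.6 to 0.12, adjusted p 0.865), within the error. Its other changes were -0.1 ± 0.19 with apigenin (0.19 under quantile normalization) and 0.03 ± 0.17 from TNF to both agents. A rise of VIM above 0.12 with TNF lies outside the interval. CDH2, the N-cadherin gene whose gain is the counterpart of CDH1 loss, was 1.82 to 2.26 on all 11 arrays, below the floor, and its group means differed by -0.06 to 0.04.

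The repressors gave little signal. SNAI1 (Snail) was 2.78, 2.37 and 2.75 in control, 3.14, 2.7 and 2.72 in TNF, 2.22 and 2.62 in apigenin, and 3.25, 2.82 and 2.61 with both, so 9 of 11 arrays reached the floor. Its TNF change was 0.22 ± 0.21 (SE, adjusted p 0.926), with overlapping groups. Its largest change was 0.47 ± 0.24 between apigenin and TNF plus apigenin (SE; 95% interval -0.03 to 0.98, unadjusted p 0.0641, adjusted p 0.345). SNAI2 (Slug) reached the floor on 2 arrays, control 2 at 2.61 and TNF 2 at 2.65, and its changes of -0.28 to -0.06 in the 5 comparisons were not called.

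ZEB1 was 2.13, 2 and 1.69 in control, 1.69, 1.69 and 1.5 in TNF, 1.69 and 1.63 in apigenin, and 1.69, 1.69 and 1.61 with both, below the floor on every array. ZEB2 was 1.89 to 2.58 and reached the floor on 1 TNF array. With no filter on low values, CDH2, ZEB1 and ZEB2 gave 0 limma calls in 18 values over 6 contrasts, 0 at an unadjusted p under 0.05, and a lowest adjusted p of 0.439. Values this low were not taken as detected, which does not say that the transcripts are absent. The group medians of ZEB1 should not be ordered, since the value 1.69 recurs on 6 arrays. Across the array, 43.2% of the genes had a value that recurred on more than 1 array, CDH2, VIM and ZEB2 among them.

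The miR-200 precursors, whose mature sequences are printed above, were looked up after the values of ZEB1 and ZEB2 had been seen. All 5 had a probe set, with values of 1.36 to 3.04. Of their 55 values, 10 reached the floor, 8 of them for MIR141 and 2 for MIR200B. These 2 were tested and neither was called in any comparison. MIR141 was 2.29 to 2.59 in control and 2.65 to 2.93 in TNF, a change of 0.32 ± 0.19 (SE, adjusted p 0.802). A probe set for a precursor does not measure the mature microRNA, so the level of the seeds shown above was not measured.

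The 6 tested genes other than CDH5 gave 0 limma calls in the 5 comparisons and the interaction and 0 values at an unadjusted p under 0.05. Over the 5 comparisons all their 95% intervals lay between -0.82 and 0.98. The median change of the 7 tested genes was 0.14 with TNF, -0.21 with apigenin and -0.18 from TNF to TNF plus apigenin, against -0.0431, -0.177 and 0.0153 over all tested genes.

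Genes that work with the members were read from lists of adhesion genes, regulators and markers. Catenins and nectins build the adherens junction on the inside and beside the cadherins. Of 14 listed genes 10 were tested and 0 were called. With apigenin 3 were below an unadjusted p of 0.05, all lower, and the list median was -0.4 against -0.18 over all genes. The share of all tested genes under that p is not given here. CTNNB1 (beta-catenin), which links CDH1 to the cytoskeleton, was 6.97, 6.92 and 6.97 in control and 6.41 and 6.54 in apigenin, a change of -0.48 ± 0.18 (SE, adjusted p 0.148). NECTIN4, a junction protein common in breast cancer, changed by -0.82 ± 0.23 with apigenin (SE, adjusted p 0.0653). Of 17 other classical and type II cadherins 4 were tested and none was called; CDH15 had a TNF change of -0.33 ± 0.16 (adjusted p 0.69) and CDH24 an apigenin change of -0.52 ± 0.26 (adjusted p 0.283). Of 11 desmosome genes 6 were tested and none was called, among them the plaque proteins DSP (-0.4 ± 0.19 with apigenin, adjusted p 0.268) and PKP3 (-0.4 ± 0.2 with TNF, adjusted p 0.724).

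Regulators outside the SNAI and ZEB families fell with apigenin in a few cases, where 3.44% of all tested genes were called lower (0.466% without apigenin 1 and 7.54% without apigenin 2). EHF, an ETS factor of epithelial cells, was 7.64, 7.51 and 7.62 in control, 7.41, 7.49 and 7.33 in TNF, 6.13 and 6.38 in apigenin, and 6.81, 6.89 and 6.58 with both. It fell by 1.33 ± 0.18 on the log2 scale with apigenin (SE; 2.52-fold, adjusted p 0.00146), a call kept in all 20 alternatives, and was 1.77-fold lower with both agents than in control (adjusted p 0.0113; not called without control replicate 1 or TNF plus apigenin replicate 3, with changes of -0.89 to -0.74 over the fits leaving out 1 array). EHF was the 1 gene called with apigenin of 13 tested epithelial regulators, whose median change was -0.48 against -0.18 over all genes. With both agents against control it was also the 1 called lower, against 1.78% of all tested genes. From TNF to both agents 1 of the 13 was called higher, against 0.384% of all tested genes. OVOL2, a repressor of ZEB1 and of EMT, was 5.12, 4.99 and 5.15 in control, 4.62, 4.34 and 4.85 in TNF, 4.94 and 5.21 in apigenin, and 5.31, 5.56 and 5.44 with both agents. From TNF to both agents it rose by 0.84 ± 0.18 (SE, 1.78-fold, limma adjusted p 0.0299). This call was lost in 8 of 20 alternatives, among them those without TNF replicate 1 or 2, control replicate 3 or any array with both agents (0.7 to 0.96). Against control OVOL2 changed by -0.48 ± 0.18 with TNF (SE, limma adjusted p 0.429), -0.01 ± 0.2 with apigenin and 0.35 ± 0.18 with both (limma adjusted p 0.35). None of these was called.

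Among 14 tested EMT transcription factors other than the members, 2 fell with apigenin, against 3.44% of all tested genes. From TNF to both agents 1 was called lower, against 0.681% of all tested genes. With both agents against control 1 was called lower, against 1.78%. SOX4, a factor that acts downstream of TGF-beta, was 7.78, 7.62 and 7.65 in control, 8.31, 8.3 and 7.97 in TNF, 5.81 and 6.75 in apigenin, and 7.16, 7.28 and 6.9 with both. It fell 2.65-fold with apigenin (log2 change -1.41 ± 0.25, SE, adjusted p 0.0066) and 2.11-fold from TNF to both agents (-1.08 ± 0.22, adjusted p 0.0249). Its apigenin change was -0.94 and not called without the array apigenin 1, and the other call ended without TNF replicate 1 or 2 or any of the 3 arrays with both agents (-1.19 to -0.97). TCF3, which encodes the E-box factors E12 and E47, fell by 0.86 ± 0.22 with apigenin (SE, adjusted p 0.0406), a call lost in 11 of 20 alternatives, among them quantile normalization (-0.54) and the fits without any 1 control array, TNF replicate 1 or 2, either apigenin array or TNF plus apigenin replicate 2 (-0.93 to -0.79). KLF8, a repressor of CDH1, was 6.26, 6.11 and 6.58 in control and 5.72, 5.68 and 5.12 with both agents, a fall of 0.81 ± 0.2 (SE, adjusted p 0.0378) that 7 alternatives did not call, among them those without control replicate 1 or 3, TNF replicate 2 or TNF plus apigenin replicate 2 or 3 (-0.92 to -0.62).

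TGF-beta is the best known inducer of EMT, and 3 of 11 tested genes of its pathway fell with apigenin, with a list median of -0.6 against -0.18 over all genes. In that comparison 3.44% of all tested genes were called lower, and the median of all genes was -0.04 without apigenin 1. None of the 11 was called with TNF or from TNF to TNF plus apigenin. TGFBR2, the receptor that binds the ligand, was 5.32, 5.21 and 5.23 in control and 4.23 and 4.44 in apigenin, a fall of 0.92 ± 0.2 (SE, adjusted p 0.0206). The other 2 are inhibitors of the pathway. BAMBI, a decoy receptor, was 6.14, 6.12 and 6.36 in control and 5.31 and 5.32 in apigenin (a fall of 0.89 ± 0.2, adjusted p 0.0278), and 7.17, 6.77 and 6.59 in TNF, where it was not called. SMAD6, an inhibitory SMAD, was 3.66, 3.3 and 3.71 in control and below the floor on both apigenin arrays (2.3 and 2.47). Its mean was at least 2.03-fold lower (limma adjusted p 0.00689), a bound that allows for the floor and not for the spread. The calls of TGFBR2, SMAD6 and BAMBI were each lost when the apigenin and control arrays were fitted alone and without the array apigenin 1, and those of TGFBR2 and BAMBI also with array weights and without control replicate 1 or 3. Quantile normalization also ended the BAMBI call (-0.6). With 1 array left out the changes were -1.02 to -0.81 for TGFBR2, -1.3 to -1.09 for SMAD6 (as fitted, below the floor) and -0.93 to -0.81 for BAMBI.

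Proteases that cut CDH1 from the cell surface include MMP7 (matrilysin). It was the 1 of 8 tested genes of CDH1 shedding and turnover called with TNF, where 0.473% of all tested genes were called higher. From TNF to both agents 0.681% of all tested genes were called lower. With both agents 1.04% were called higher against control and 0.529% against apigenin. MMP7 was 5.76, 5.62 and 5.99 in control, 7.59, 7.62 and 7.33 in TNF, 5.19 and 5.14 in apigenin, and 6.67, 6.81 and 6.45 with both. TNF raised it 3.31-fold (log2 change 1.73 ± 0.17, SE, adjusted p 7.21e-05), and with apigenin added it was 1.83-fold lower than with TNF (adjusted p 0.0209), a call lost without TNF replicate 1 or 2 or TNF plus apigenin replicate 1 or 3 (-0.97 to -0.78). With both agents it was still 1.8-fold above control (adjusted p 0.0142; not called without control replicate 1 or 2 or TNF plus apigenin replicate 2, 0.77 to 0.95) and 2.78-fold above apigenin alone (adjusted p 0.00223). ADAM10, the main CDH1 sheddase, was not called.

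Of 14 tested mesenchymal structural and surface genes 1 was called, lower with apigenin, where 3.44% of all tested genes were called lower. CALD1 (caldesmon), an actin-binding protein, was 4.67, 4.57 and 4.57 in control and 3.77 and 3.86 in apigenin, a fall of 0.79 ± 0.18 (SE, adjusted p 0.0283) that 5 of 20 alternatives did not call, among them those without apigenin 1 or control replicate 1 or 3 (-0.83 to -0.74). With TNF none of the 14 was called, 2 were higher at an unadjusted p under 0.05, and the list median was 0.14 against -0.04. The share of all tested genes under that p is not given here. Of 14 tested chromatin and turnover partners of SNAI and ZEB proteins none was called; SUZ12 of the polycomb complex changed by -0.58 ± 0.21 with apigenin (SE, adjusted p 0.141) and the deacetylase SIRT1 by 0.37 ± 0.22 with TNF (adjusted p 0.805).

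**Figure D5:**
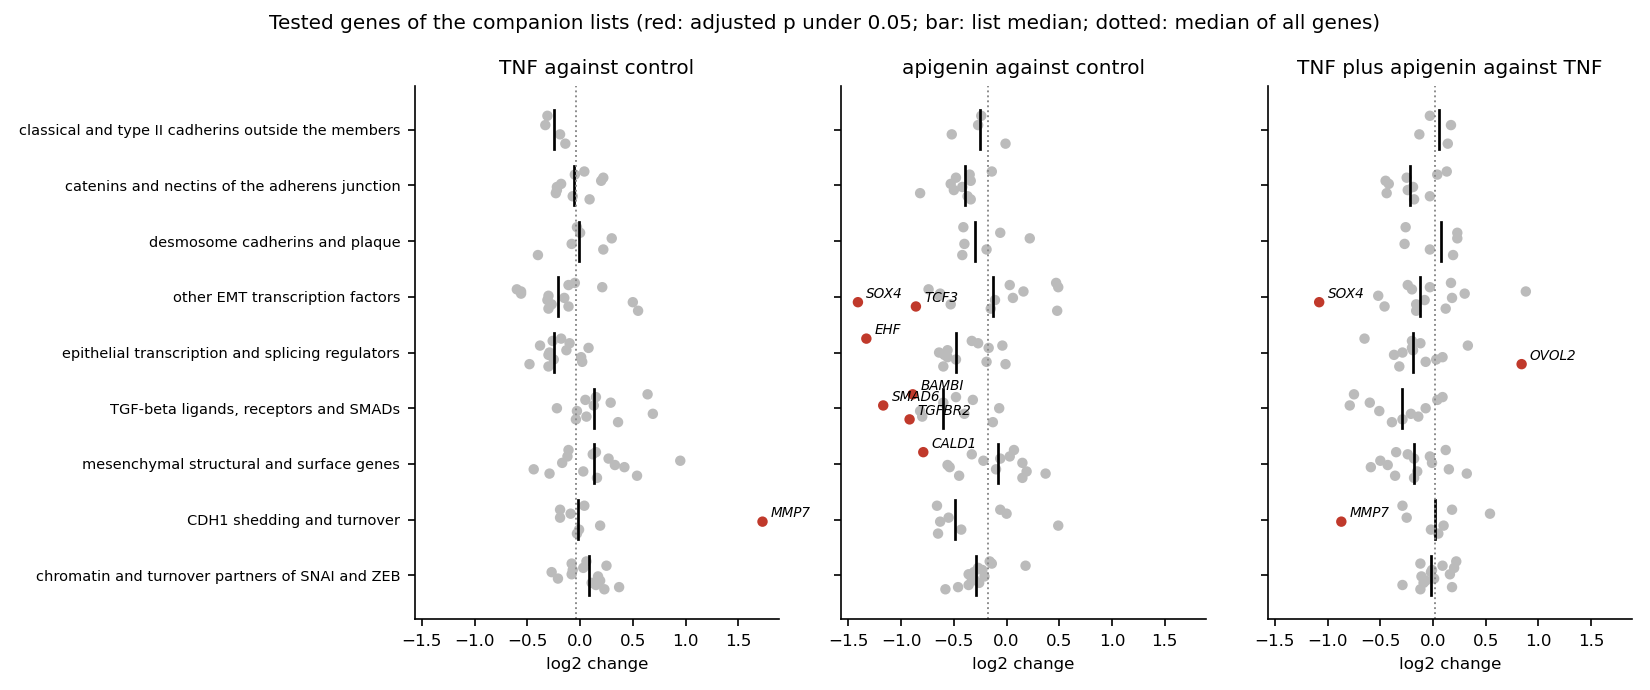
Log2 change of every tested gene of 9 lists of adhesion genes and EMT regulators in 3 comparisons; red points have an adjusted p under 0.05, bars are list medians and dotted lines the median of all tested genes. MMP7 stands at 1.73 with TNF, and 7 genes are red with apigenin, all below 0. Of all tested genes 3.44% were called lower with apigenin and 0.221% higher.

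Of the 6 epithelial markers, 1 was called lower with both agents than in control, where 1.78% of all tested genes were called lower. This was KRT19, a keratin, at 8.56, 8.29 and 8.55 in control and 7.71, 7.63 and 7.59 with both agents. It was 1.77-fold lower (limma adjusted p 0.0133), a call lost without control replicate 1 or 3 or TNF plus apigenin replicate 2 or 3 (-0.91 to -0.78). The claudins CLDN4 (-0.64 ± 0.18, SE, limma adjusted p 0.0838) and CLDN7 (-0.4 ± 0.17, adjusted p 0.256) and the keratin KRT18 (-0.54 ± 0.19, adjusted p 0.149) were not called. Their unadjusted p was under 0.05, and the share of all tested genes under that p is not given here. The summed level of the 6 was 9.9 to 10.08 in control, 9.62 to 9.84 in TNF, 9.68 to 10 in apigenin and 9.42 to 9.61 with both, so the TNF arrays and those with both agents lay below all control arrays. EGFR, which this line carries in excess, was 10.53 to 11.14 on all arrays and was not called. ESR1 and the fibroblast marker THY1 were not called. The summed fibroblast markers spanned 4.89 to 5.04 in control, 4.82 to 4.95 in TNF, 5.07 to 5.18 in apigenin and 4.82 to 4.93 with both. Of 7 macrophage markers CD14, which breast cancer lines can express, was 6.3, 6.72 and 6.4 in control, 5.35, 5.35 and 5.05 in TNF, 4.47 and 4.34 in apigenin, and 4.91, 4.45 and 4.15 with both. It fell 2.33-fold with TNF (adjusted p 0.00829; not called without control replicate 2 or TNF replicate 3, -1.31 to -1.1) and 4.18-fold with apigenin (adjusted p 0.000354), and was 3.91-fold below control with both agents (adjusted p 0.000119). Its part in the results of the set was not tested.

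The genes most like CDH1 over the 11 arrays were FBLN1 (Pearson correlation 0.975), PLEKHA4 (0.969) and the proteasome subunit PSMB6 (0.962). FBLN1, a matrix protein, was 5.96 to 6.17 in control and 5.6 to 5.94 in apigenin, and like CDH1 it was not called in any comparison. The genes most like VIM were the small nucleolar RNA SNORA22 (0.956), the mitochondrial protease subunit CLPP (0.937) and the epithelial sorting adaptor AP1M2 (0.936), and none of these was called. VIM and CDH1 had a correlation of 0.441 over the 11 arrays and VIM and CDH5 of -0.196, as a description of arrays that share their group means.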

How the data were processed

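Per the submitters' processing notes, the authors used Affymetrix Expression Console to make the deposited log2 value of each probe set on 11 arrays. Summarisation method, version and build were not given in the sources used here. No source names the base of the logarithm, and base 2 was taken from the spread of the values, 0.38 to 12.3. The titles name triplicates, and 2 apigenin arrays were analysed here. The labels do not say whether replicates are separate cultures, so p-values measure only the spread between arrays, which may be technical, and the number of arrays limits the precision.

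The array annotation listed 25713 of 53617 probe sets, 23871 with 1 gene symbol and 1842 with several, and 27904 had none. Several probe sets were found for 632 genes, and the brightest stood for each. Testing required 2 or more arrays at the floor of 2.53. In limma 3.58.1 (R 4.3.3), lmFit and eBayes were run on the 11 arrays together with a mean for each group (7 residual degrees of freedom), with two-sided p-values adjusted by Benjamini-Hochberg over 15865 genes. The script was tested on simulated data.

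The members and lists were chosen with earlier results of these data known. All members were named. From each list the genes called in any comparison were named, or, where none was, those with the lowest p with TNF and with apigenin, and 3 genes most like CDH1, VIM and CDH5. The alternatives were quantile normalization, a median shift, no filter, a stricter floor at the 60th percentile, the compared groups alone, array weights, eBayes with trend and robust, a replicate block, the mean over probe sets and leaving out each array.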

Additional observations from a re-analysis of the deposited data

How the results depend on the processing

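Of 827 values of the 7 tested members under 20 alternatives, 764 kept their direction and side of the threshold, 15 lost a call, 0 gained one and 48 changed sign, 34 of these on leaving out an array. No value that changed sign had been called. The members called with TNF went from 1 to 0 with no filter, with the compared groups alone and with a replicate block, and those called with apigenin from 1 to 0 with the compared groups alone and with array weights; leaving out an array gave 0 to 1 in both. CDH5 then had adjusted p-values of 0.0577, 0.0649 and 0.0684 with TNF, and 0.0754 and 0.0589 with apigenin. From TNF to TNF plus apigenin the count was 1 under every alternative, and elsewhere 0. Same-numbered arrays did not deviate together (Pearson correlation -0.24 to 0.275, over 0.1 in 4 of 15 pairs), so the numbers were not taken as pairs, and the replicate block changed no other member's call.

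Quantile normalization moved the median of all genes with apigenin from -0.18 to -0.03, TNF plus apigenin against apigenin from 0.16 to 0.02 and the interaction from 0.23 to 0.02, and higher genes from 35 of 581 to 146 of 595 calls with apigenin and from 84 of 91 to 78 of 96 against apigenin. It turned the sign of CDH3 (0.15), EPCAM (0.03) and VIM (0.19) with apigenin, VIM from TNF to both agents (-0.02), EPCAM with both against control (0.08), CDH1 (-0.15), CDH3 (-0.25) and SNAI2 (0) against apigenin, and the interaction of CDH1 (-0.24), EPCAM (-0.16) and VIM (-0.2). EPCAM with both against control was 0.02 after the median shift and 0.05 with array weights, which also turned the SNAI2 interaction (-0.06).

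Leaving out an array gave CDH1 -0.11 to 0.14 with TNF, -0.17 to 0.22 against apigenin and -0.19 to 0.2 for the interaction; CDH3 -0.36 to 0.06 with apigenin and -0.2 to 0.22 against it; EPCAM -0.05 to 0.06 with both against control and -0.11 to 0.17 for the interaction; VIM -0.09 to 0.11 and SNAI1 -0.14 to 0.18 from TNF to both; SNAI2 -0.3 to 0.06 with TNF, -0.35 to 0.02 from TNF to both and -0.12 to 0.24 for the interaction; and CDH5 -0.48 to 0.04 for the interaction. The causes were not tested. Calls over all genes ranged from 76 to 221 with TNF (111 in the text's setting), 103 to 729 with apigenin (581), 126 to 510 from TNF to both (169), 356 to 1233 for both against control (447), 16 to 173 for both against apigenin (91) and 0 to 8 for the interaction (4). Leaving out 1 array gave 60 to 128, 84 to 1290, 85 to 197, 206 to 538, 18 to 598 and 0 to 7. SNAI2 has no value under the stricter floor.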

Other observations

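CDH1, CDH3 and CDH5 lie on chromosome 16, CDH1 and CDH3 side by side. In the gene order of RefSeq GRCh38.p14, counting tested genes, CDH5 lies between CDH11 and the long non-coding RNA LINC00920, with GOT2 and BEAN1 beyond them. None of these 4 neighbours was called in any comparison. LINC00920 came closest, with a change of -0.7 ± 0.22 (SE, limma adjusted p 0.111) between control and TNF plus apigenin, and its TNF change was -0.28 ± 0.22 (adjusted p 0.89), against 0.92 for CDH5. The neighbours of CDH1 and CDH3 (ZFP90, SMPD3, TANGO6 and HAS3) were not called either. The neighbours were looked up after the CDH5 values were seen.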
